A study of Mus musculus with 18 samples.

Results

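Transcripts of the oxygen-sensing pathway were followed in mouse macrophages that had met silica or iron oxide nanoparticles and then LPS (lipopolysaccharide), which comes from the outer membrane of bacteria. The 8 genes Hif1a, Egln1, Egln3, Vegfa, Bnip3, Slc2a1, Pfkfb3 and Ndrg1 were taken by symbol from a list for this pathway. That list was chosen with earlier results of these data known. Shares of the 8 genes set beside shares of all genes are therefore descriptions and not tests. All 8 were on the array, through 21 probe sets of the 20380 that carried 1 gene symbol, and the number of genes tested in all was 12393. The brightest probe set of each gene, by its mean over the arrays, was tested, and the others are given where they differed.

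The cells were primary macrophages grown from the marrow of C57BL/6 mice aged 4 to 6 weeks, in medium conditioned by L929 cells. There were 6 groups of 3 arrays, 18 in all, each array from 1 culture. CON cells had medium without particles or LPS, and LPS cells had 10 ng/ml LPS for 4 h without particles. Silica and SPIO cells had amorphous silica of 50 nm or iron oxide of 33 nm for 24 h and then 4 h of fresh medium, and Silica-LPS and SPIO-LPS cells had the same particles followed by LPS. The labels give the concentration of both particles as 25 mg/ml, and the unit could not be checked here. The labels call the arrays biological replicates without naming separate animals. The p-values therefore reflect only how far these cultures varied.

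As background, HIF-1 alpha, the protein of Hif1a, is made all the time and destroyed when oxygen is present. The prolyl hydroxylases PHD2 (gene Egln1) and PHD3 (Egln3) use oxygen, iron and 2-oxoglutarate to mark it for destruction by the VHL ubiquitin ligase. When they fail, HIF-1 alpha pairs with ARNT and binds the letters ACGTG or GCGTG near its target genes. These targets raise glucose uptake and glycolysis, remove mitochondria and call for blood vessels, and include Egln3 and often Egln1, which gives negative feedback. In macrophages LPS also induces Hif1a transcription through NF-kB, and activated macrophages rely on glycolysis. Transcript levels do not show how much HIF-1 alpha protein was present.

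RefSeq promoter windows (GRCm38.p6) were found for 7 of the 8 genes, all but Ndrg1, with 2 start sites each for Pfkfb3 and Vegfa. The 250 bases before each start were searched for ACGTG and GCGTG on both strands. At least 1 match was found in 8 of the 9 windows, against 38.6% of all 32851 windows. The letters CACGTG, a match in both directions at once that is also the E-box of other factors, stood in 6.02% of all windows, and in those of Hif1a, Bnip3 and the second start of Pfkfb3. The stretches that hold the matches are shown for Hif1a, Egln1, Egln3, Bnip3, Slc2a1 and the first start of Pfkfb3. They run 5′ to 3′ on the gene's strand, with the matches in capitals. The second starts of Vegfa, with 2 matches, and of Pfkfb3, with 3, are not shown. A match is a string of letters, and binding was not measured.
Hif1a, plus strand, chr12:73907717-73907816: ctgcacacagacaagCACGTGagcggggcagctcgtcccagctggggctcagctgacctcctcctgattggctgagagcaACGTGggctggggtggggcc
Egln1, minus strand, chr8:124949303-124949395: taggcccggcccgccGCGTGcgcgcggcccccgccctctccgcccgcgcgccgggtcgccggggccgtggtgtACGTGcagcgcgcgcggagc
Egln3, minus strand, chr12:54204084-54204118: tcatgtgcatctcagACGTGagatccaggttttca
Bnip3, minus strand, chr7:138909522-138909638: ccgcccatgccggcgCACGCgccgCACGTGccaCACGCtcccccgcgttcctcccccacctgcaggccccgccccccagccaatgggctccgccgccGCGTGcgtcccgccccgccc
Slc2a1, plus strand, chr4:119108669-119108728: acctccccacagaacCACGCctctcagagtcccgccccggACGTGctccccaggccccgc
Pfkfb3, first start, minus strand, chr2:11553970-11554004: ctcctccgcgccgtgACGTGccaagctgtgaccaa
The matches are spread unevenly: Bnip3 holds 5 overlapping or separate ones, and its nearest begins 35 bases before the start. The match of Egln3 begins 229 bases before the start, and that of the first Pfkfb3 start 60 bases before it.

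The deposited values are log2 signals, so a difference of 1 is a 2-fold change. Array medians ran from 6.23 to 6.43, and arrays of 1 group correlated at 0.997 to 0.999 over probe sets. All 9 measured macrophage markers stood above the array median, while none of the 6 endothelial, 4 B cell, 4 T and NK cell, 3 erythroid or 4 mast cell markers did. Neutrophil and fibroblast markers were present, with 6 of 8 and 7 of 10 above the median. A gene was called at an adjusted p below 0.05 from limma with Benjamini-Hochberg adjustment over all genes of a comparison. Values after ± are standard errors of the model unless named otherwise, and each group had n = 3.

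LPS without particles raised 3 of the genes and lowered 1. Hif1a, the glucose transporter gene Slc2a1 and Pfkfb3, whose enzyme makes fructose 2,6-bisphosphate and so drives phosphofructokinase, rose, and the sensor gene Egln1 fell. Egln3, Vegfa, the mitophagy gene Bnip3 and the stress-response gene Ndrg1 did not pass the test. The calls covered 4 of the 8 genes, against 58.2% of all genes tested, 22.2% higher and 36.1% lower. The median difference of the 8 genes was 0.23 and that of all genes -0.01. Centring each array on its median instead moved the median of all genes to 0.11 here, to 0.11 for LPS after silica and to 0.17 for LPS after iron oxide, so small changes with LPS depend on the scaling.

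**Figure D1:**
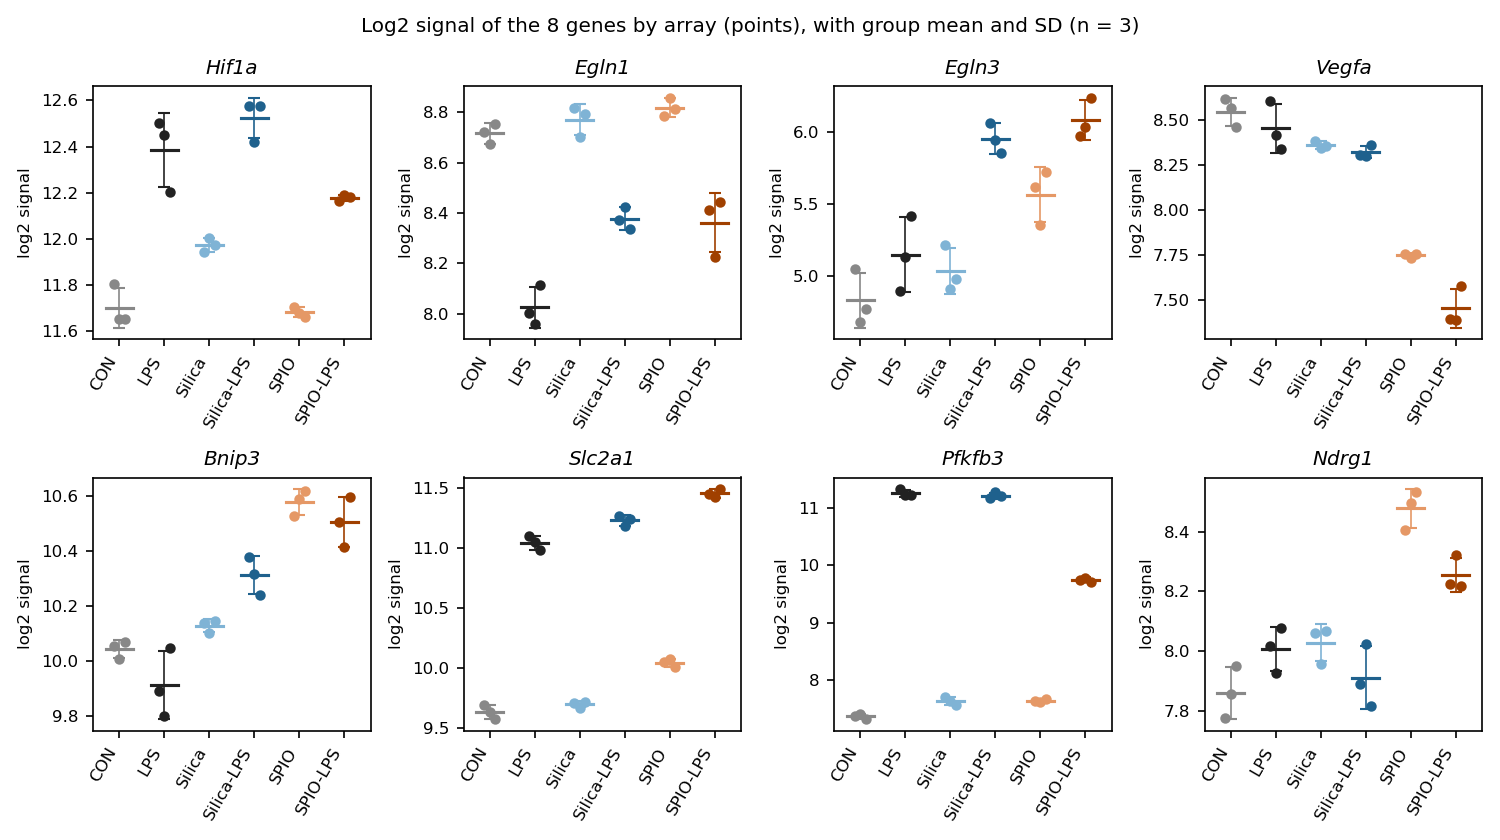
Log2 signal (vertical axis, a separate range in each panel) of the 8 genes on every array, by group (horizontal axis). Points are arrays, lines are group means and bars are SD (n = 3). Pfkfb3 stands at 11.25 in LPS and 9.75 in SPIO-LPS, and Vegfa is lowest in SPIO and SPIO-LPS.

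Hif1a read 11.80, 11.65 and 11.65 in the CON arrays and 12.50, 12.45 and 12.20 in the LPS arrays. It read 11.94, 12.003 and 11.97 in Silica, 12.58, 12.42 and 12.58 in Silica-LPS, 11.70, 11.68 and 11.66 in SPIO, and 12.16, 12.19 and 12.18 in SPIO-LPS. Every array with LPS was above every array without it. LPS raised Hif1a by 0.68 ± 0.069 after plain medium (adjusted p = 2.42e-07), by 0.55 ± 0.069 after silica and by 0.50 ± 0.069 after iron oxide. In order of level, Silica-LPS and LPS overlapped, SPIO-LPS, then Silica, stood below them without overlap, and CON and SPIO overlapped at the bottom. Other Hif1a probe sets gave larger LPS differences, 1.22 ± 0.058 and 1.29 ± 0.11, while the dimmest, with a mean signal of 3.60, gave 0.07 ± 0.14.

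Silica alone raised Hif1a by 0.27 ± 0.069 (adjusted p = 0.0392), a call that was lost when any array but CON 1 was left out. Without CON 2, CON 3, Silica 1, Silica 2 or Silica 3 the adjusted p was 0.159, 0.121, 0.0673, 0.114 or 0.116, and the other 3 probe sets gave 0.14, -0.01 and -0.16 without a call. Under LPS, iron oxide lowered Hif1a by 0.21 ± 0.069 (-0.21, adjusted p = 0.0299), and the second brightest probe set gave -0.22 ± 0.058 (adjusted p = 0.00909). That first call was lost without LPS 1 (-0.15, adjusted p = 0.14), LPS 2 (-0.17, adjusted p = 0.114), SPIO-LPS 1 (-0.20, adjusted p = 0.0737), SPIO-LPS 2 (-0.21, adjusted p = 0.0571) or SPIO-LPS 3 (-0.21, adjusted p = 0.0654). Between particles, Hif1a was lower with iron oxide than with silica, by 0.29 ± 0.069 without LPS (-0.29, adjusted p = 0.00519) and by 0.35 ± 0.069 with it (-0.35, adjusted p = 0.0014). The first of these was not called on the mean of the 4 probe sets (-0.12, adjusted p = 0.166). Without LPS the third brightest probe set averaged higher in SPIO (5.27) than in Silica (5.10). The second brightest and the dimmest averaged lower in SPIO (8.97 against 9.11, and 3.35 against 3.55).

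Egln1 encodes the main oxygen sensor that marks HIF-1 alpha. It read 8.72, 8.67 and 8.75 in CON, 8.82, 8.70 and 8.79 in Silica, and 8.79, 8.86 and 8.81 in SPIO. With LPS it read 8.002, 7.96 and 8.11 in LPS, 8.37, 8.42 and 8.34 in Silica-LPS, and 8.41, 8.23 and 8.44 in SPIO-LPS. SPIO overlapped Silica and Silica overlapped CON, both particle groups with LPS overlapped each other below these, and the LPS group was lowest, without overlap. LPS lowered Egln1 by 0.69 ± 0.059 (-0.69, adjusted p = 3.44e-08), by 0.39 after silica and by 0.46 after iron oxide (-0.39 and -0.46), and a second probe set gave -0.62 ± 0.075, -0.37 and -0.42. Under LPS, Egln1 was higher by 0.35 ± 0.059 with silica (adjusted p = 0.00434) and by 0.34 ± 0.059 with iron oxide (adjusted p = 0.000355) than with plain medium. The second probe set gave 0.15 ± 0.075 and 0.09 ± 0.075 for these particle differences, without a call. The particle-by-LPS interactions, which ask whether the LPS response differed after a particle, were not called (0.30, adjusted p = 0.391, and 0.23, adjusted p = 0.107). For iron oxide the interaction was called without SPIO-LPS 2 (0.30, adjusted p = 0.0209), with cyclic loess (0.24, adjusted p = 0.0449) and with arrays centred on their medians (0.27, adjusted p = 0.0304).

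Egln3 encodes the sensor that hypoxia itself induces. Both of its probe sets were dim, with mean signals of 5.44 and 4.77, below the array medians. It read 5.04, 4.67 and 4.77 in CON, 4.90, 5.13 and 5.42 in LPS, and 5.21, 4.91 and 4.98 in Silica, which all overlapped. It read 5.61, 5.35 and 5.72 in SPIO, 6.06, 5.94 and 5.85 in Silica-LPS, and 5.98, 6.04 and 6.24 in SPIO-LPS. The particle groups with LPS were thus the highest and overlapped each other, and no array of theirs fell within the range of another group. Under LPS, Egln3 was 1.75-fold higher with silica (0.81 ± 0.14, adjusted p = 0.00434) and 1.92-fold higher with iron oxide (0.94 ± 0.14, adjusted p = 5.51e-05). Without LPS, iron oxide raised it by 0.74 ± 0.14 (adjusted p = 0.000522), and silica gave 0.20 ± 0.14 (adjusted p = 0.47). The second probe set passed for iron oxide with and without LPS (0.69 ± 0.12 and 0.48 ± 0.12) and not for silica under LPS (0.37 ± 0.12, adjusted p = 0.123). Neither interaction was called (0.60 ± 0.19 for silica, adjusted p = 0.482, and 0.20 ± 0.19 for iron oxide, adjusted p = 0.633).

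For LPS alone Egln3 gave 0.32 ± 0.14 (adjusted p = 0.0554), which passed without CON 1 (0.43, adjusted p = 0.0203) or LPS 1 (0.44, adjusted p = 0.0125) and was smallest without LPS 3 (0.18, adjusted p = 0.271). It also passed with array median centring (0.45, adjusted p = 0.00817), and the second probe set gave 0.03 ± 0.12. After silica and after iron oxide, LPS raised Egln3 by 0.92 ± 0.14 and 0.52 ± 0.14.

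Slc2a1 encodes GLUT1, the glucose transporter that activated macrophages induce. It read 9.69, 9.63 and 9.57 in CON, 9.71, 9.67 and 9.71 in Silica, and 10.04, 10.07 and 10.01 in SPIO. With LPS it read 11.10, 11.05 and 10.98 in LPS, 11.26, 11.18 and 11.24 in Silica-LPS, and 11.45, 11.42 and 11.49 in SPIO-LPS. The order from SPIO-LPS down to SPIO ran without overlap between neighbours, and Silica and CON overlapped below it. LPS raised Slc2a1 2.65-fold after plain medium (1.41 ± 0.045, adjusted p = 1.26e-13), by 1.53 ± 0.045 after silica and by 1.41 ± 0.045 after iron oxide. Iron oxide added 0.41 ± 0.045 without LPS (adjusted p = 3.59e-06) and 0.41 ± 0.045 with LPS (adjusted p = 3.06e-06). In this brightest probe set the interaction of iron oxide with LPS was 0.004, with a 95% interval from -0.13 to 0.14. Silica raised Slc2a1 under LPS by 0.19 ± 0.045 (adjusted p = 0.0348), a call lost without LPS 2, LPS 3, Silica-LPS 1 or Silica-LPS 3 (adjusted p = 0.0923, 0.113, 0.147 and 0.11). The 3 probe sets of Slc2a1 gave LPS differences of 1.41, 1.42 and 1.41. The dimmest, with a mean signal of 8.90, averaged 8.08 in CON, 9.49 in LPS, 8.34 in SPIO and 9.93 in SPIO-LPS. In it, iron oxide stood further above plain medium with LPS than without it, and Silica (7.89) stood below CON.

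**Figure D2:**
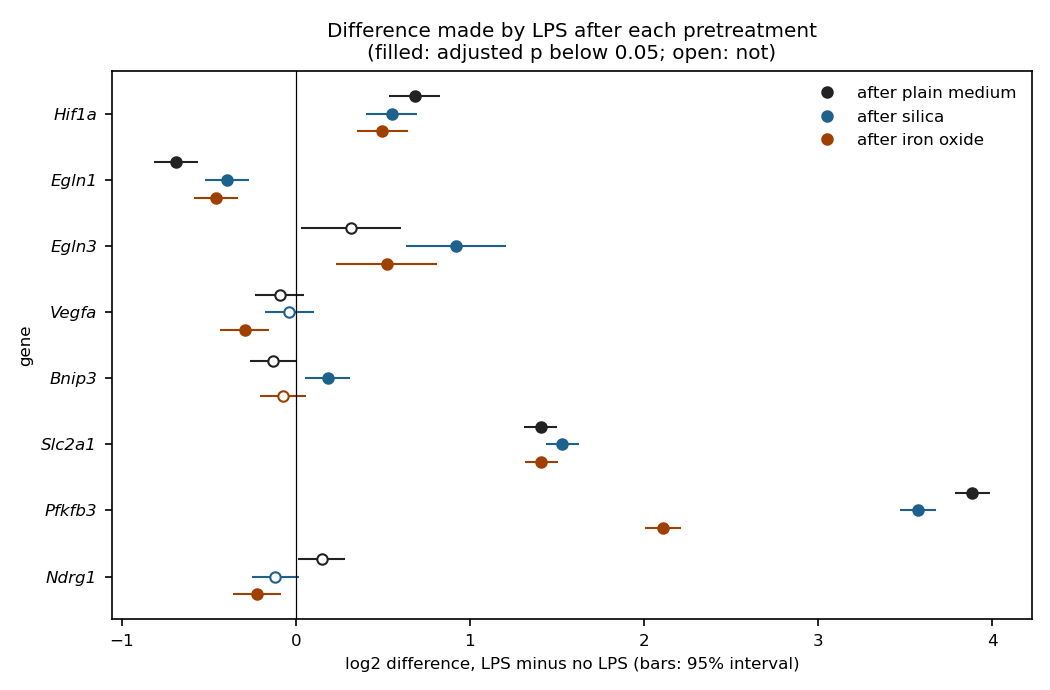
Log2 difference made by LPS (horizontal axis) for each gene (vertical axis) after plain medium, silica or iron oxide. Bars are 95% intervals, and filled points passed the test. The Pfkfb3 points lie at 3.89, 3.57 and 2.11, and the Slc2a1 points at 1.41, 1.53 and 1.41.

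Pfkfb3 rose the most with LPS among the 8 genes, and by less after iron oxide. It read 7.37, 7.41 and 7.32 in CON, 7.71, 7.63 and 7.57 in Silica, and 7.63, 7.61 and 7.66 in SPIO. With LPS it read 11.32, 11.22 and 11.22 in LPS, 11.16, 11.26 and 11.20 in Silica-LPS, and 9.75, 9.78 and 9.70 in SPIO-LPS. LPS and Silica-LPS overlapped, and SPIO-LPS stood alone between them and the groups without LPS. LPS raised Pfkfb3 14.8-fold after plain medium (3.89 ± 0.048), 11.9-fold after silica (3.57 ± 0.048) and 4.31-fold after iron oxide (2.11 ± 0.048). The interaction of iron oxide with LPS was -1.78 ± 0.068 (adjusted p = 3.3e-10), in a comparison where 8.8% of all genes were called, 3.73% positive and 5.07% negative. In cells with LPS, iron oxide left Pfkfb3 2.84-fold lower than plain medium (-1.51 ± 0.048, adjusted p = 6.29e-12) and 2.76-fold lower than silica (-1.46 ± 0.048, adjusted p = 1.4e-11).

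The second Pfkfb3 probe set was dimmer, with a mean signal of 4.79, and rose less with LPS. Its LPS differences were 1.57 ± 0.095, 1.65 ± 0.095 and 0.89 ± 0.095 after plain medium, silica and iron oxide, and its interaction with iron oxide was -0.68 ± 0.13 (adjusted p = 0.00439 over all probe sets). Without LPS the brighter probe set was higher by 0.27 ± 0.048 with silica (adjusted p = 0.00533) and by 0.27 ± 0.048 with iron oxide (adjusted p = 0.000391). The dimmer gave -0.06 ± 0.095 and -0.15 ± 0.095 there, without a call. The interaction of silica with LPS was -0.31 ± 0.068 for the brighter (adjusted p = 0.234), called only with a variance trend and robust prior among the settings tried (adjusted p = 0.0317).

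Bnip3, measured by 1 probe set, encodes a mitochondrial protein that marks mitochondria for removal. It read 10.05, 10.01 and 10.07 in CON, 9.89, 9.80 and 10.05 in LPS, and 10.14, 10.10 and 10.15 in Silica. It read 10.38, 10.31 and 10.24 in Silica-LPS, 10.53, 10.59 and 10.62 in SPIO, and 10.51, 10.41 and 10.60 in SPIO-LPS. The iron oxide groups overlapped at the top, Silica-LPS and then Silica followed without overlap, and CON and LPS overlapped at the bottom. Iron oxide raised Bnip3 by 0.53 ± 0.062 without LPS (adjusted p = 5.84e-06) and by 0.59 ± 0.062 with it (adjusted p = 1.87e-06), and silica by 0.40 ± 0.062 with LPS (adjusted p = 0.00234). Silica without LPS gave 0.09 ± 0.062 (adjusted p = 0.514), and the interaction was 0.31 ± 0.087 (adjusted p = 0.381), so a different silica effect with LPS was not shown. LPS gave -0.13 ± 0.062 after plain medium (adjusted p = 0.0817), which passed without LPS 3 (-0.20, adjusted p = 0.00943) and was smallest without LPS 2 (-0.07, adjusted p = 0.348). After silica LPS raised Bnip3 by 0.18 ± 0.062 (adjusted p = 0.0184), a call lost without Silica 2 (adjusted p = 0.055) or Silica-LPS 1 (adjusted p = 0.0816).

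Vegfa encodes the vessel growth factor VEGF-A. It read 8.62, 8.57 and 8.46 in CON, 8.61, 8.42 and 8.34 in LPS, 8.39, 8.34 and 8.36 in Silica, and 8.31, 8.30 and 8.36 in Silica-LPS. It read 7.76, 7.74 and 7.76 in SPIO and 7.40, 7.39 and 7.58 in SPIO-LPS. Each of the first 4 groups overlapped its neighbour in level, and both iron oxide groups lay below all of them. Iron oxide lowered Vegfa 1.74-fold without LPS (-0.80 ± 0.066, adjusted p = 1.55e-07) and 1.998-fold with it (-0.998 ± 0.066, adjusted p = 1.21e-08), and the interaction was -0.20 ± 0.093 (adjusted p = 0.238). Silica gave -0.19 ± 0.066 and -0.13 ± 0.066 without a call. Iron oxide and silica differed from each other by -0.61 ± 0.066 without LPS and by -0.87 ± 0.066 with it, and both differences passed. The second probe set gave -0.13 ± 0.10 (adjusted p = 0.435) for the difference without LPS.

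The probe sets of Vegfa differed in their LPS response and not in the direction of the iron oxide effect. The second, with a mean signal of 5.91, rose with LPS by 0.50 ± 0.10 (adjusted p = 0.000668), where the brighter gave -0.09 ± 0.066 (adjusted p = 0.248), or -0.17 (adjusted p = 0.0289) without LPS 1. It gave -0.29 ± 0.10 with iron oxide alone and -0.54 ± 0.10 with iron oxide under LPS, both called. After iron oxide the brighter fell with LPS by 0.29 ± 0.066 (-0.29, adjusted p = 0.00105), which was lost with cyclic loess (-0.10, adjusted p = 0.222), with array median centring (-0.13, adjusted p = 0.113) and on the mean of its probe sets (-0.02, adjusted p = 0.774). The second gave 0.25 ± 0.10 there (adjusted p = 0.0514).

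Ndrg1 encodes a cytoplasmic protein induced by hypoxia, metals and differentiation. It read 7.77, 7.86 and 7.95 in CON, 8.02, 7.93 and 8.08 in LPS, 8.06, 7.96 and 8.07 in Silica, and 7.89, 8.03 and 7.82 in Silica-LPS. It read 8.41, 8.50 and 8.53 in SPIO and 8.22, 8.32 and 8.22 in SPIO-LPS. The iron oxide groups stood above the other 4 and apart from each other. Iron oxide raised Ndrg1 by 0.62 ± 0.064 without LPS (adjusted p = 1.86e-06) and by 0.25 ± 0.064 with LPS (adjusted p = 0.00705), and the interaction was -0.37 ± 0.091 (adjusted p = 0.0161). A second probe set gave 0.74 ± 0.083, 0.28 ± 0.083 and -0.46 ± 0.12 for these, all called. The other 3 gave 0.51, -0.03 and 0.53 for iron oxide alone, the first and last of them called, and none was called for iron oxide under LPS or for the interaction. On the mean of all 5 probe sets iron oxide under LPS was not called (0.10, adjusted p = 0.302).

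For LPS alone, Ndrg1 gave 0.15 ± 0.064 (adjusted p = 0.0601), and it was called without CON 3 (0.19, adjusted p = 0.0287), without LPS 2 (0.19, adjusted p = 0.0351), and with cyclic loess (0.34, adjusted p = 0.000102). After iron oxide LPS lowered it by 0.22 ± 0.064 (-0.22, adjusted p = 0.00653), which neither cyclic loess (-0.02, adjusted p = 0.736) nor array median centring (-0.06, adjusted p = 0.363) kept. Of its other 4 probe sets, 2 were called lower there too, at -0.36 and -0.37. After silica it was called lower only without Silica-LPS 2 (-0.17, adjusted p = 0.0368).

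Read by particle, silica alone changed 2 of the 8 genes, Hif1a and Pfkfb3, against 4.02% of all genes. Under LPS silica raised 4, Egln1, Egln3, Bnip3 and Slc2a1, and lowered 0, where 2.86% of all genes were called, 1.89% higher and 0.976% lower. The median silica difference under LPS was 0.16 for the 8 genes and 0.004 for all genes. As the 8 genes were chosen with earlier results of these data known, such contrasts only describe them. When only the 6 arrays compared were fitted, limma called 0 of the 8 genes in either silica comparison, at 110 and 63 genes in all. The count over all genes for silica alone, 498, was 306, 203 and 318 without CON 1, 2 or 3 and 297 and 228 without Silica 2 or 3. Under LPS the count, 355, was 196 without LPS 2, and 214 and 186 without Silica-LPS 1 or 3. Silica alone and silica under LPS share no arrays with each other, while each shares its control group with the matching iron oxide comparison.

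Iron oxide alone changed 6 of the 8 genes, 5 higher and Vegfa lower, against 33.8% of all genes, 19.6% higher and 14.2% lower. Under LPS it changed all 8, with Egln1, Egln3, Bnip3, Slc2a1 and Ndrg1 higher and Hif1a, Vegfa and Pfkfb3 lower, against 32.7% of all genes, 18.2% higher and 14.6% lower. Among these, Hif1a was lost with array median centring (limma adjusted p = 0.0723) and with the compared groups only (adjusted p = 0.132). It was also lost without several single arrays, as given above. The call of Ndrg1 under LPS was lost on the mean of its probe sets (0.10, adjusted p = 0.302). The median size of change was 0.47 and 0.50 in the 8 genes and 0.14 and 0.13 in all genes. Here too the choice of the 8 genes with earlier results known limits the contrast to a description. Against silica, iron oxide changed 6 of 8 without LPS, where 26.1% of all genes were called, and 6 of 8 with LPS, where 25.1% were. Of the latter, Bnip3 (0.19 ± 0.062, adjusted p = 0.0304) was lost without Silica-LPS 2, Silica-LPS 3, SPIO-LPS 1 or SPIO-LPS 3 (adjusted p = 0.0682, 0.125, 0.0693 and 0.127). Ndrg1 (0.34 ± 0.064) was lost on the mean of its probe sets (0.14, adjusted p = 0.156). Egln1 was called in neither, Pfkfb3 differed by 0.003 without LPS (95% interval from -0.10 to 0.11), and Egln3 by 0.13 with LPS (95% interval from -0.16 to 0.42).

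**Figure D3:**
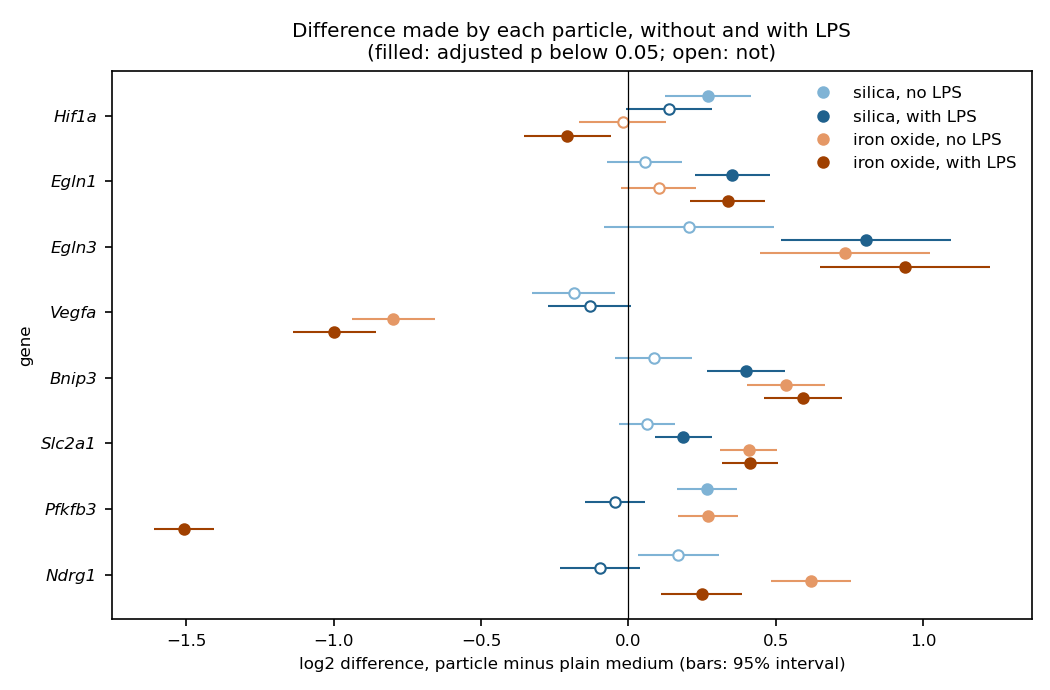
Log2 difference made by silica or iron oxide against plain medium (horizontal axis) for each gene (vertical axis), without and with LPS. Bars are 95% intervals, and filled points passed the test. Pfkfb3 after iron oxide lies at 0.27 without LPS and at -1.51 with it, while the Slc2a1 points both lie at 0.41.

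LPS changed 6 of the 8 genes after silica, where 57.3% of all genes were called, and 7 of 8 after iron oxide, where 64.1% were. The silica by LPS interaction called 0 of the 8 genes and 2 of all genes by limma, 0.0161%. At an unadjusted p below 0.05 there were 5 of the 8 and 843 of all genes. That of iron oxide called Pfkfb3 and Ndrg1, both negative, against the 8.8% of all genes given above. The interaction of Hif1a with iron oxide, -0.19 ± 0.097 (adjusted p = 0.305), was called without LPS 3 (-0.28, adjusted p = 0.0346).

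**Figure D4:**
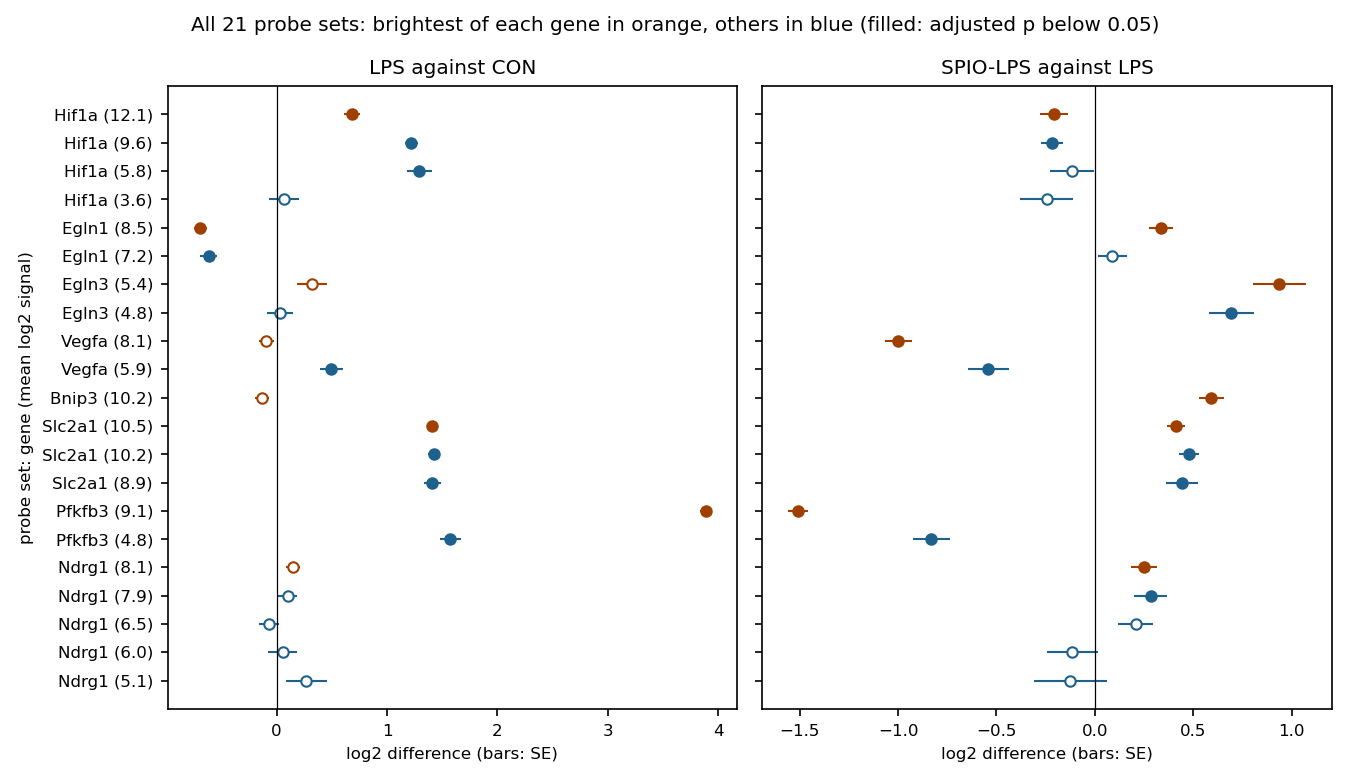
Log2 difference of all 21 probe sets (vertical axis, with the mean log2 signal of each) for LPS against CON and SPIO-LPS against LPS (horizontal axes). Bars are SE, filled points passed the test, and the brightest probe set of each gene is orange. Both Pfkfb3 probe sets lie at -0.83 or below for iron oxide under LPS, while those of Vegfa lie on opposite sides of 0 for LPS.

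Cell type markers moved with iron oxide and with LPS, as did many of all genes. LPS alone called 22.2% of all genes higher and 36.1% lower. Iron oxide called 19.6% higher and 14.2% lower without LPS, and 18.2% higher and 14.6% lower with it. Of 8 neutrophil markers 7 fell and 1 rose after iron oxide alone, with list means of 9.60 to 9.66 in CON arrays and 9.22 to 9.27 in SPIO arrays, and under LPS 6 fell and 1 rose, with means of 9.45 to 9.49 in LPS and 9.14 to 9.20 in SPIO-LPS. Of 10 fibroblast markers 5 fell without LPS and 6 with it, and their means went from 8.84 to 8.88 in CON to 8.54 to 8.57 in SPIO, and from 8.85 to 8.94 in LPS to 8.46 to 8.53 in SPIO-LPS. LPS alone raised 3 and lowered 6 of the 10 fibroblast markers, raised 1 and lowered 4 of the 8 neutrophil markers, and raised 3 and lowered 5 of the 9 macrophage markers. Iron oxide alone raised 2 and lowered 5 of the macrophage markers, with list means of 11.54 to 11.59 in CON and 11.34 to 11.39 in SPIO. The part of these markers in the results was not tested. In these whole cultures fewer cells of a type and less RNA per cell cannot be told apart. As a sign of RNA quality, the 3′ minus 5′ log2 signal of the Gapdh controls averaged 0.69 in CON, 0.56 in Silica, 0.47 in SPIO, 0.52 in LPS, 0.43 in Silica-LPS and 0.40 in SPIO-LPS. That of Actb averaged 0.59 in CON, 0.62 in Silica, 0.66 in SPIO, 0.38 in LPS, 0.44 in Silica-LPS and 0.52 in SPIO-LPS, so with particles Gapdh was lower and Actb higher. Their part was not tested either.

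The rest of the sensing machinery was measured for 10 further genes. Of all genes, LPS called 58.2%, iron oxide alone 33.8% and iron oxide under LPS 32.7%. Silica called 4.02% of all genes without LPS and 2.86% with it. LPS raised 5 and lowered 1, with Siah2, a ligase that degrades prolyl hydroxylases, at 0.89 ± 0.059, the third hydroxylase gene Egln2 at 0.65 ± 0.04, Epas1, which encodes HIF-2 alpha, at 0.45 ± 0.097, and Cul2, a scaffold of the VHL ligase, at 0.40 ± 0.054. Egln2 and Egln1 thus went opposite ways with LPS. Iron oxide alone raised 3 and lowered 2 of the 10, the largest being Arnt (0.35) and Epas1 (-0.32). Without CON 1 or SPIO 2, 3 of the 10 were called for iron oxide alone, with neither Arnt nor Epas1 among them. Epas1 was also lost without SPIO 3 (limma adjusted p = 0.0575), and Arnt with the compared groups only (adjusted p = 0.0568). Another of the calls, Os9, was lost on the mean of its probe sets (0.02, adjusted p = 0.787). Under LPS iron oxide raised 2, Vhl (0.46 ± 0.10) and Cul2 (0.24), and lowered 2, Epas1 (-0.36) and Siah2 (-0.26). Silica changed 0 of the 10 by limma without or with LPS. At an unadjusted p below 0.05 it had 3 of the 10 in each, against 2213 and 2077 of all 12393 genes.

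Glycolysis and its transporters gave 16 further genes. The shares of all genes called were 22.2% higher and 36.1% lower with LPS. They were 19.6% higher and 14.2% lower with iron oxide alone, and 18.2% higher and 14.6% lower with iron oxide under LPS. For silica they were 4.02% without LPS and 2.86% with it. LPS raised 6 and lowered 8 (median -0.17). Those that rose included Pfkp (1.29 ± 0.046) and Pfkl (0.63 ± 0.11), which encode phosphofructokinase, and the hexokinase gene Hk2 (1.08 ± 0.069). The glucose transporter gene Slc2a3 fell by 1.72 ± 0.069 (-1.72) while Slc2a1 rose. Iron oxide alone raised 8 of 16 and lowered 0 (median 0.17), led by the aldolase gene Aldoc (1.65 ± 0.067), the phosphofructokinase gene Pfkl (0.58), the mutase gene Pgam1 (0.58) and the aldolase gene Aldoa (0.39). Under LPS it raised 10, with Aldoc at 1.52 ± 0.067, Aldoa at 0.60 ± 0.04, the lactate exporter gene Slc16a3 at 0.53 and the pyruvate kinase gene Pkm at 0.44, and lowered 1, Hk2 (-0.28). Hk2, the first enzyme of the pathway, had a negative interaction of iron oxide with LPS (-0.47 ± 0.098, adjusted p = 0.00522). Aldoa had a positive one (0.20 ± 0.057), which was lost in 9 of 12 fits without 1 array (CON 2, CON 3, LPS 1, LPS 2, any SPIO array, SPIO-LPS 1 or SPIO-LPS 3, adjusted p = 0.0551 to 0.0889). Silica raised 2 without LPS, Aldoc (0.51 ± 0.067) and Pgam1 (0.20), and 4 with it, Aldoc (0.55), Pgam1 (0.21), Pgk1 (0.18) and Aldoa (0.17), and lowered 0. Under LPS the call of Aldoa was lost without any 1 of the 6 arrays (adjusted p = 0.0556 to 0.146) and that of Pgk1 without LPS 1 or Silica-LPS 1 (adjusted p = 0.0502 and 0.0547). With LPS 1 or with Silica-LPS 1 left out, 2 of the 16 were called.

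**Figure D5:**
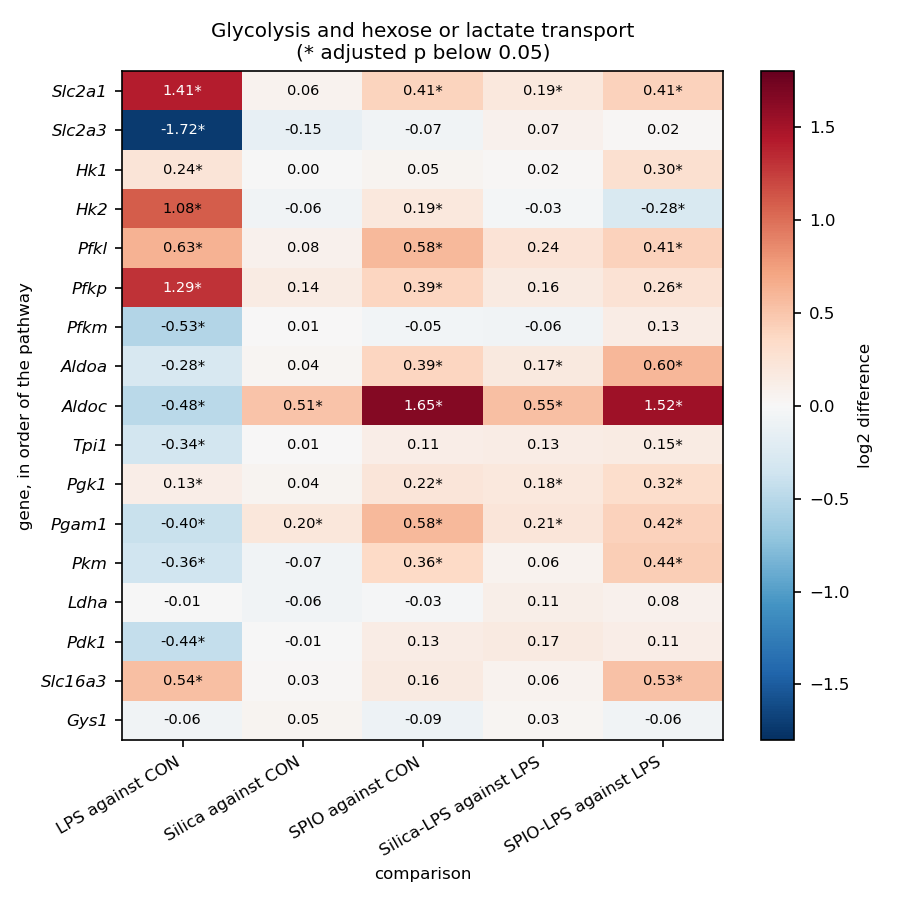
Log2 difference of 17 genes of glycolysis and of glucose or lactate transport (vertical axis) in 5 comparisons (horizontal axis), by colour and number, with a star where the test passed. Aldoc has the largest values in both iron oxide columns, 1.65 and 1.52, and Slc2a3 the largest fall with LPS, -1.72.

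Of the other PFKFB isoenzymes only Pfkfb2 was measured. It rose with LPS by 0.23, a call lost with cyclic loess (0.20), on the mean of its probe sets (0.01), and without CON 1, CON 3 or LPS 2 (adjusted p = 0.102, 0.096 and 0.162). Pfkfb2 was not called for either particle. Of all genes, LPS called 58.2% and silica 4.02% without LPS and 2.86% with it. Iron oxide called 33.8% of all genes without LPS and 32.7% with it. In the NDRG family LPS lowered Ndrg3 (-1.25 ± 0.065) and Ndrg4 (-0.40 ± 0.062), while iron oxide called 0 of the 3 by limma without or with LPS. At an unadjusted p below 0.05 these were 0 and 1, against 5318 and 5047 of all 12393 genes. Silica raised Ndrg4 by 0.37 without LPS and by 0.31 with it. The latter call was lost without LPS 2 or Silica-LPS 3 (adjusted p = 0.0576 and 0.0589), and iron oxide under LPS called 1 of the 3 without LPS 1 or SPIO-LPS 2.

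Among 24 further HIF target genes the directions were mixed. Of all genes, LPS called 58.2%, iron oxide 33.8% alone and 32.7% under LPS, and the interaction of iron oxide with LPS 8.8%. Silica called 4.02% of all genes alone and 2.86% under LPS. LPS raised 11 and lowered 10, with Nos2, the inducible nitric oxide synthase gene (1.45 ± 0.11), higher. The chemokine receptor gene Cxcr4 (-5.32 ± 0.074), Mxi1 (-2.14 ± 0.039), which encodes a MYC antagonist, and Rora (-1.64) were lower. Iron oxide alone raised 8 and lowered 7. The heme oxygenase gene Hmox1 (1.16 ± 0.073) and Rora (0.66) rose, and the endothelin gene Edn1 (-0.82 ± 0.066) and Ddit4 (-0.65), which encodes an mTOR inhibitor, fell. Under LPS iron oxide raised 7 and lowered 5, with Hmox1 at 1.40 ± 0.073, Rora at 0.72, Ero1a, an oxidase gene of protein folding, at 0.66 and Edn1 at -0.81 ± 0.066. The interaction of iron oxide with LPS was called for 4 of the 24, the adrenomedullin gene Adm (0.73 ± 0.12), Bhlhe40 (-0.58), the lipid droplet gene Plin2 (-0.55) and the transferrin receptor gene Tfrc (-0.48). Silica raised 2, P4ha2 (0.33) and Ero1a (0.24), and lowered Adm (-0.42). The call of Ero1a was lost without CON 1, CON 3, Silica 1 or Silica 3 (adjusted p = 0.0841, 0.0739, 0.0752 and 0.0829). Under LPS it raised 2, Cxcr4 (0.45) and Ero1a (0.29), and lowered 0.

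Around Vegfa, 9 further ligands and receptors were measured. Of all genes, LPS called 58.2%, iron oxide 33.8% alone and 32.7% under LPS, and the interaction of iron oxide with LPS 8.8%. Silica called 4.02% of all genes alone and 2.86% under LPS. LPS raised 4, Nrp2 (1.54 ± 0.10), Vegfc (1.33 ± 0.12), Kdr (1.18 ± 0.094) and Flt1 (0.61), and lowered Nrp1 (-1.38 ± 0.055), a co-receptor, and the ligand gene Vegfb (-1.19 ± 0.099). Kdr, also an endothelial marker above, had a mean signal of 6.22 over all arrays, below the array medians. Iron oxide alone raised Vegfb by 0.94 ± 0.099 while Vegfa fell, and lowered Pgf (-0.44) and Vegfc (-0.35), the latter lost without CON 2, CON 3, SPIO 1 or SPIO 3 (adjusted p = 0.122, 0.105, 0.0881 and 0.111). Under LPS it raised Nrp1 (0.89 ± 0.055), Vegfb (0.47) and Nrp2 (0.36) and lowered Kdr (-0.64) and Flt4 (-0.27). Nrp2 was lost without LPS 1 or SPIO-LPS 2 (adjusted p = 0.0534 and 0.0504), and Flt4 without LPS 3, SPIO-LPS 2 or SPIO-LPS 3 (adjusted p = 0.139, 0.113 and 0.137). The interaction of iron oxide with LPS was 0.88 ± 0.078 for Nrp1 (adjusted p = 2.1e-06), where LPS lowered it by 0.49 after iron oxide (-0.49) and by 1.38 after plain medium (-1.38). It was negative for Vegfb (-0.47 ± 0.14, adjusted p = 0.0488) and Kdr (-0.46 ± 0.13, adjusted p = 0.0454), each lost without any 1 of several arrays (adjusted p up to 0.118 and 0.106). Those arrays were every CON array, LPS 1, LPS 2, SPIO 2, SPIO 3, SPIO-LPS 2 and SPIO-LPS 3 for Vegfb, and CON 1, CON 3, LPS 2, LPS 3, SPIO 1, SPIO 3, SPIO-LPS 1 and SPIO-LPS 3 for Kdr. Silica alone lowered Kdr (-0.40), a call lost without any CON array, Silica 1 or Silica 3 (adjusted p = 0.0573, 0.129, 0.0615, 0.0762 and 0.119). Under LPS silica called 0 of the 9 by limma. At an unadjusted p below 0.05 it had 4 of the 9, against 2077 of all 12393 genes.

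Over the 18 arrays, the gene most like Pfkfb3 in signal was Zfp281 (Pearson r = 0.997), ahead of C3ar1 and Pgap2 (both 0.996). Slc2a1 was followed most closely by Coa5 (0.996), Anxa7 and Slc31a1 (both 0.995), and Hif1a by Sema4a (0.985), Sdc1 (0.980) and B2m (0.979). The closest to Egln3 was Pgk1 (0.954), then Nras (0.931) and Ankrd40 (0.924), and the closest to Egln1 were Exosc4 (0.977), Fahd1 and Rnf5 (both 0.971). Vegfa ran with Ccr1 (0.981), the neutrophil marker S100a9 (0.970) and Cdc20 (0.967), Bnip3 with Slc15a4 (0.956), Kpna1 (0.948) and Stard4 (0.942), and Ndrg1 with Slc11a1 (0.935), Stx3 (0.930) and Bex1 (0.928). These values describe arrays that share their groups, and for genes that respond to LPS they follow mainly the arrays with and without it. Among the 8 genes, Bnip3 and Vegfa gave -0.84, Pfkfb3 and Egln1 -0.90, and Pfkfb3 and Hif1a 0.93 over the same 18 arrays. Slc2a1 gave 0.89 with Pfkfb3, 0.81 with Hif1a and -0.80 with Egln1. Hif1a and Egln1 gave -0.82, Vegfa and Ndrg1 -0.81, and Bnip3 and Ndrg1 0.75. The remaining pairs were weaker.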

How the data were processed

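RNA of 18 mouse macrophage cultures was hybridised to Affymetrix arrays, from 3 µg of total RNA per the labels' protocols. The authors deposited log2 signals per probe set, made with RMA per the submitters' processing notes; the program behind it is not given in the sources used here. Arrays carry no counts, so their number limits precision. Of 22626 probe sets besides 64 controls, 20380 had 1 symbol, 691 several and 1555 none in the platform annotation, and the symbols of 20351 were matched to current ones by gene identifier. The brightest probe set stood for each of 12393 genes. Every column matched a sample, and no columns were identical.

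Group means over all 18 arrays were estimated with limma 3.58.1 in R 4.3.3 (lmFit, contrasts.fit, eBayes), giving 11 comparisons with Benjamini-Hochberg adjustment over all genes of each. An interaction is the LPS difference after a particle minus that after plain medium. The procedure was run on simulated data with 200 genes shifted in the LPS group. In the real data LPS changed far more genes, so that run does not show how well these calls hold. The genes and lists were chosen with earlier results of these data known. Named besides the 8 were the called genes that changed most, at most 4 per list and comparison, and the 3 genes most correlated with each of the 8. Kdr and Flt1 with LPS and Flt4 with iron oxide under LPS were named to complete small counts, after their values were seen. Alternatives were a replicate block, a variance trend with robust prior, a fit of only the groups compared, leaving out the dimmest 33.3% of genes, each probe set alone, probe set means, cyclic loess, median centring, array weights and leaving out each array. Sequences are RefSeq's (GRCm38.p6).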

Additional observations from a re-analysis of the deposited data

Results flagged for a closer look

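Pfkfb3 responded differently to LPS after iron oxide than after plain medium. The interaction was -1.78 ± 0.068 on the log2 scale (limma adjusted p = 3.3e-10), and every SPIO-LPS array stood below every LPS array.

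Ndrg1 had an interaction of iron oxide with LPS of -0.37 ± 0.091 (limma adjusted p = 0.0161). With cyclic loess, with array median centring and with each array of the 4 groups left out it kept its sign and its call. The dimmer probe sets of Ndrg1 did not all call it. Of its parts, LPS alone was not called (0.15, limma adjusted p = 0.0601). The fall with LPS after iron oxide (-0.22) was not called with cyclic loess (-0.02) or array median centring (-0.06).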

How the results depend on the processing

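Over 88 values of the 8 genes, 2 that were not called turned sign and were then called, both on the mean of probe sets. Vegfa went from -0.09 to 0.20 for LPS against CON and from -0.04 to 0.19 for LPS after silica. Values called neither before nor after changed sign in 29 cases. Of the 8 genes, LPS alone called 7 with a variance trend and robust prior. Silica alone called 0 with the compared groups only or the mean of probe sets, 1 with cyclic loess, 1 with array median centring and 1 to 2 with an array left out. Under LPS silica called 0 with the compared groups only. The silica interaction called 1 with a variance trend.

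Over all genes, silica alone called 110 with the compared groups only, 850 with a variance trend, 755 without the dimmest 33.3% of genes, 919 with array weights and 203 to 381 with an array left out. Under LPS silica called 63, 577 and 536 for the first 3 of these and 186 to 333 with an array left out. The silica interaction called 0 with the compared groups only, 40 with a variance trend, 5 without the dimmest genes, 0 with each probe set on its own, 1 with probe set means, 1 with cyclic loess and 0 to 2 with an array left out. The cause of these shifts was not tested. Genes called higher and lower with LPS alone were 2747 and 4469, 3276 and 3618 with cyclic loess, and 4411 and 3629 with array median centring. For silica alone they were 304 and 194, and 253 and 268 with cyclic loess. For LPS after silica they were 2662 and 4442, 3370 and 3547, and 4396 and 3560, and after iron oxide 3387 and 4551, and 5620 and 3490 with median centring. For the interaction of iron oxide they were 462 and 628, and 663 and 540 with median centring.

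With the replicate block, the silica interaction called 0 genes and LPS alone 7149, and 0 of the 88 calls changed. Among 144 values of named list genes, 34 lost their call under at least 1 setting, 4 of them with the block, and 91 of 1062 counts of list genes moved by over 1.5 times. Same-numbered arrays deviated at correlations of -0.31 to 0.19 over 45 pairs, 8 of them over 0.1, so the numbers were not taken to pair the arrays. With 3 arrays a group, the median standard error of a difference was 0.08.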
